A study of Homo sapiens with 6 samples.

Results

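The genes described here are 9 receptor tyrosine kinases with a part in melanoma (AXL, EGFR, MET, PDGFRB, ERBB2, ERBB3, FGFR1, IGF1R and EPHA2) and NGFR, the low-affinity neurotrophin receptor. They were chosen by name, with earlier results of these data known. All 10 symbols matched 1 row each among the 18318 genes kept, by Ensembl identifier. The cells were A375, an established human melanoma line that carries an activating BRAF mutation. In the SLNCR group, 3 libraries came from cells transfected with a pcDNA3.1 plasmid carrying wild type SLNCR, a long non-coding RNA listed as LINC00673. In the empty vector group, 3 libraries came from cells given the backbone alone. Per the labels, the plasmid has a CAG promoter and a puromycin resistance gene, a lipid reagent delivered it, and RNA was taken from both groups after 48 h with 2 µg/mL puromycin. These are short-lived transfected pools of 1 line, and no label says how the cultures of a group were separated, so p-values measure the spread between these libraries, which may be technical.

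Totals were between 9287450 and 10822083 counts per library. LINC00673 stood at 170, 247 and 227 CPM (counts scaled to library size with TMM factors) in the SLNCR libraries, against 19.5, 21.4 and 21.1 CPM in the empty vector libraries, so the libraries matched their labels. The labels call the cells epithelial. Of 13 epithelial markers in the table, 8 stayed under 10 counts in every library, among them EPCAM and CDH1, while the simple keratins KRT18 and KRT8 reached 97.8 and 21.2 CPM per kilobase of merged exon (RPKM) in the SLNCR group and 119 and 26.3 RPKM in the empty vector group. Both keratin genes passed as lower, KRT18 at -0.29 (edgeR adjusted p = 0.0137) and KRT8 at -0.31 (edgeR adjusted p = 0.0143) on the log2 scale, 2 of the 5 epithelial markers tested. Over all tested genes 7.67% passed as lower with edgeR. The exons of KRT18 and KRT8 share 525 bases on opposite strands, 16.3% of those of KRT18 and 7.6% of those of KRT8. With the GC offset described below, 0 of the epithelial markers passed. Of the lineage-wide melanoma markers, the adhesion molecule gene MCAM had 38.1 RPKM in the SLNCR group and 41.8 RPKM in the empty vector group, and PRAME 20.5 and 21.05 RPKM. Of 7 such markers tested 1 passed, the intermediate filament gene VIM, which averaged 599.7 RPKM in the SLNCR group and 673.6 RPKM in the empty vector group (log2 fold change -0.17, edgeR adjusted p = 0.0328). VIM shares 12.4% of its exon bases with VIM-AS1 on the opposite strand, and with the GC offset 0 of these 7 markers passed. Markers of fibroblasts summed to between 8.65 and 9.13 CPM in the SLNCR libraries and between 7.60 and 8.58 CPM in the empty vector libraries, and those of endothelial cells to between 5.04 and 6.34 CPM and between 5.14 and 6.98 CPM. Of the 4 haematopoietic markers in the table, CD68, a lysosomal protein gene that many cells express, held most of the sum, while CD3E had at most 1 count in a library.

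Receptor tyrosine kinases sit in the cell membrane, bind growth factors or membrane-bound ephrins outside the cell, pair up and phosphorylate each other on tyrosines. Adaptors such as GRB2 and SHC1 dock on those tyrosines and pass the signal to the RAS and PI3K pathways, while phosphatases, the ubiquitin ligase CBL and endosomal sorting end it. In melanoma, high AXL and EGFR with low MITF mark a dedifferentiated state that tolerates BRAF inhibitors, and NGFR marks a neural crest-like state. ERBB3 needs a partner such as ERBB2, since its own kinase has little activity and ERBB2 has no known ligand.

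Levels differed far more between receptors than between groups. EPHA2, which binds ephrin-A ligands, had 161, 165 and 146 RPKM in the SLNCR libraries, against 189, 188 and 176 RPKM in the empty vector libraries. AXL, the receptor for GAS6, had 158, 166 and 158 RPKM in the SLNCR libraries, against 170, 170 and 166 RPKM in the empty vector libraries. MET, the receptor for hepatocyte growth factor, had 96.8, 90.9 and 103 RPKM in the SLNCR libraries, against 86.7, 85.9 and 92.3 RPKM in the empty vector libraries. All SLNCR libraries lay below all empty vector libraries for EPHA2, while the groups overlapped at 1 library for AXL and for MET. These 3 genes held between 91.3% and 91.9% of the summed level of the 10 in the SLNCR libraries and between 91.5% and 91.7% in the empty vector libraries. Over all 6 libraries, EPHA2, AXL and MET stood above 98.9%, 98.8% and 97.2% of the 12797 tested genes in level per length.

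A middle pair followed. EGFR, the receptor for TGFA and HBEGF, averaged 13.6 ± 0.492 RPKM in the SLNCR group and 13.6 ± 0.102 RPKM in the empty vector group (SD, n = 3 each). IGF1R, the receptor for insulin-like growth factors, averaged 13.1 ± 0.185 RPKM in the SLNCR group and 14.5 ± 0.36 RPKM in the empty vector group (SD, n = 3 each). Below them, ERBB2 had 3.75, 3.92 and 4.10 RPKM in the SLNCR libraries, against 4.86, 4.60 and 4.53 RPKM in the empty vector libraries. FGFR1, which binds fibroblast growth factors, averaged 3.66 ± 0.0608 RPKM in the SLNCR group and 3.996 ± 0.348 RPKM in the empty vector group (SD, n = 3 each). The groups did not overlap for IGF1R, ERBB2 and FGFR1, with every SLNCR library lower. The levels of ERBB2 and FGFR1 depend on the length used: over the longest transcript in place of merged exons, the SLNCR group averaged 8.21 RPKM for ERBB2 and 8.16 RPKM for FGFR1, with the order of the 10 genes kept.

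The other three genes were low. NGFR had 1.95, 2.13 and 1.80 RPKM in the SLNCR libraries, from 85, 92 and 67 counts, against 1.73, 2.02 and 1.98 RPKM in the empty vector libraries, from 72, 76 and 75 counts. PDGFRB, a receptor typical of mesenchymal cells, averaged 1.40 ± 0.202 RPKM in the SLNCR group and 1.58 ± 0.192 RPKM in the empty vector group (SD, n = 3 each). ERBB3 was counted at 13, 15 and 12 reads in the SLNCR libraries and 18, 15 and 16 reads in the empty vector libraries, which gave 0.148 ± 0.0114 and 0.192 ± 0.00811 RPKM (SD, n = 3 each). The groups did not overlap for ERBB3 after scaling, while its counts were low and its interval, given below, is wide. From EPHA2 to ERBB3 the level fell by a factor of 1005 over all 6 libraries.

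**Figure D1:**
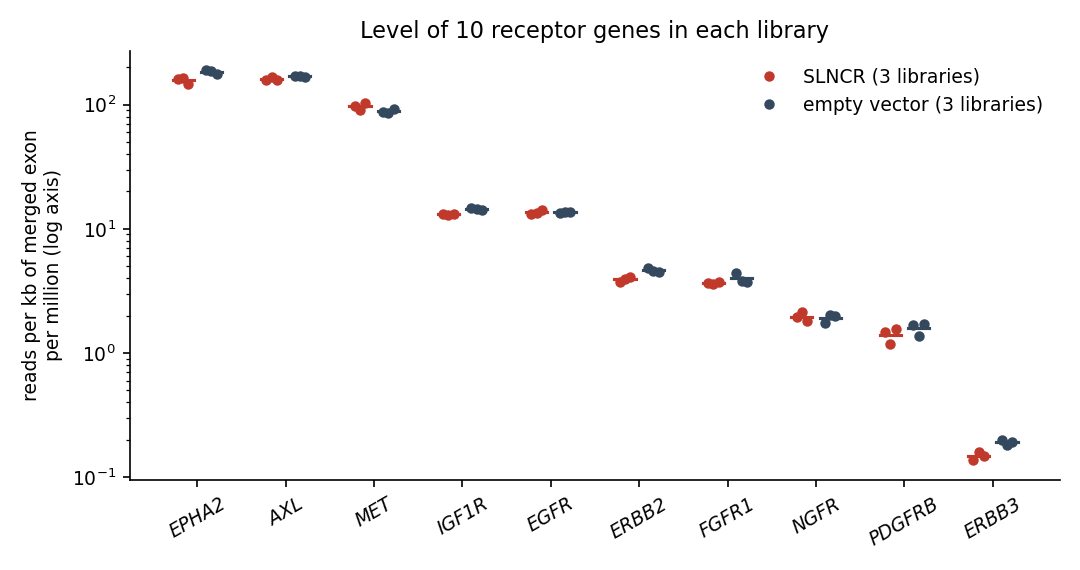
Level of each receptor gene in RPKM (log axis) in the 3 SLNCR libraries (red, left) and the 3 empty vector libraries (dark, right), with group means as bars. EPHA2, AXL and MET lie near or above 85.9 RPKM in all libraries, and ERBB3 lies below 0.2 RPKM.

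The order of levels was nearly the same in both groups. In the SLNCR libraries it ran AXL, EPHA2, MET, EGFR, IGF1R, ERBB2, FGFR1, NGFR, PDGFRB and ERBB3. The library ranges of AXL and EPHA2 overlapped there, and so did those of EGFR and IGF1R, so these neighbours did not differ beyond their spread. In the empty vector libraries EPHA2 was above AXL and IGF1R above EGFR, and no neighbours overlapped, though the gap between EPHA2 and AXL was only 1.09-fold. The ratio of EPHA2 to AXL was 1.02, 0.991 and 0.923 in the SLNCR libraries, against 1.11, 1.10 and 1.06 in the empty vector libraries. The ratio of MET to EPHA2 was 0.602, 0.552 and 0.71 in the SLNCR libraries, against 0.459, 0.457 and 0.524 in the empty vector libraries, again with no overlap. GC content of these transcripts differs, and its values are given with the changes. With the GC offset described there, the log2 fold changes of MET and EPHA2 were 0.02 and -0.02.

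AXL was far above the melanocyte genes in level per length. MITF, the melanocyte lineage regulator, averaged 13.3 ± 1.06 RPKM in the SLNCR group and 11.9 ± 1.17 RPKM in the empty vector group (SD, n = 3 each), and SOX10, a neural crest factor, 3.43 and 3.60 RPKM. The ratio of AXL to MITF was 12.3, 13.2 and 10.9 in the SLNCR libraries, against 15.98, 14.1 and 12.8 in the empty vector libraries. The groups overlapped at 1 library, and empty vector replicates 1 and 2 lay above every SLNCR library. The pigment genes PMEL, TYRP1 and DCT averaged at most 0.216 RPKM in the SLNCR group and 0.16 RPKM in the empty vector group. Of 16 melanocyte differentiation genes in the counts, 10 were tested, and 0 passed in either direction with edgeR.

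The comparison asked which receptors changed in level when SLNCR was overexpressed. EPHA2 and ERBB2 fell, 0 of the 10 genes rose, and 8 did not pass (edgeR quasi-likelihood test, Benjamini-Hochberg adjusted p below 0.05 over 12797 genes). Across all tested genes 7.67% were lower and 8.84% higher, 16.5% in all, so 2 of 10 is near the background. EPHA2 (chromosome 1, 16124337 to 16156087, minus strand, GRCh38) had a log2 fold change of -0.23 (standard error 0.0523, adjusted p = 0.0148 by edgeR), which is 0.853-fold. ERBB2 (chromosome 17, 39687914 to 39730426, plus strand) had a log2 fold change of -0.25 (standard error 0.0744, adjusted p = 0.0317 by edgeR), or 0.84-fold. Both were lower in each SLNCR library than in any empty vector library. Sums of 2 marker lists were lower too, and each rested mostly on genes that passed. With the GC offset described below, 0 genes of either list passed. The epithelial markers, mostly KRT18 and KRT8, summed to between 447.6 and 509.8 CPM in the SLNCR libraries and between 568.4 and 635.4 CPM in the empty vector libraries. The melanoma markers, mostly VIM, summed to between 3533 and 3948 CPM and between 4040 and 4335 CPM. Of 7 melanoma markers tested 1 passed, and MITF averaged higher in the SLNCR group. The part of these sums in the fall of EPHA2 and ERBB2 was not tested. In a bulk sample, fewer cells of a kind and less RNA per cell cannot be told apart.

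MET and IGF1R came next, in opposite directions, and did not pass. MET (chromosome 7, 116672390 to 116798386, plus strand) had a log2 fold change of 0.14 (95% interval 0.025 to 0.25, edgeR adjusted p = 0.0784). IGF1R (chromosome 15, 98648539 to 98964530, plus strand) had a log2 fold change of -0.14 (95% interval -0.25 to -0.029, edgeR adjusted p = 0.0701). For these 2 genes the unadjusted edgeR p was 0.0188 and 0.0158, and 4 of the 10 genes had an unadjusted p below 0.05, as did 34.8% of all tested genes, so that count is near the background.

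For the highest of the others, the intervals were narrow. AXL (chromosome 19, 41219203 to 41261766, plus strand) had a log2 fold change of -0.07 (95% interval -0.16 to 0.023, edgeR adjusted p = 0.264). EGFR (chromosome 7, 55019021 to 55211628, plus strand) had a log2 fold change of -0.0034 (95% interval -0.12 to 0.11, edgeR adjusted p = 0.962). These intervals reflect the spread between libraries in this fit and do not cover the GC trend described below. With the GC offset given there, AXL stood at 0.04, past the upper bound given here. FGFR1 (chromosome 8, 38400215 to 38468834, minus strand) stood at -0.13 (95% interval -0.29 to 0.033, edgeR adjusted p = 0.24).

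The low genes carried wide intervals. NGFR (chromosome 17, 49495293 to 49515017, plus strand) stood at 0.04 (95% interval -0.26 to 0.35, edgeR adjusted p = 0.839). PDGFRB (chromosome 5, 150113837 to 150155872, minus strand) stood at -0.18 (95% interval -0.48 to 0.12, edgeR adjusted p = 0.38). ERBB3 (chromosome 12, 56076799 to 56103505, plus strand) stood at -0.37 (95% interval -0.99 to 0.25, edgeR adjusted p = 0.385). ERBB3 thus had the most negative estimate of the 10 genes and the least precise one. The 10 genes had a median log2 fold change of -0.13, beside -0.0097 over all tested genes, and for 5 of them the groups did not overlap, each with SLNCR lower. Over all tested genes, 38.9% did not overlap in either direction, and the share with SLNCR lower was not counted. The median of the 10 genes was -0.0192 with the GC offset described below, beside 0.00146 over all tested genes. Their longest transcripts had a median GC content of 53.0%, against 47.9% over all tested genes.

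**Figure D2:**
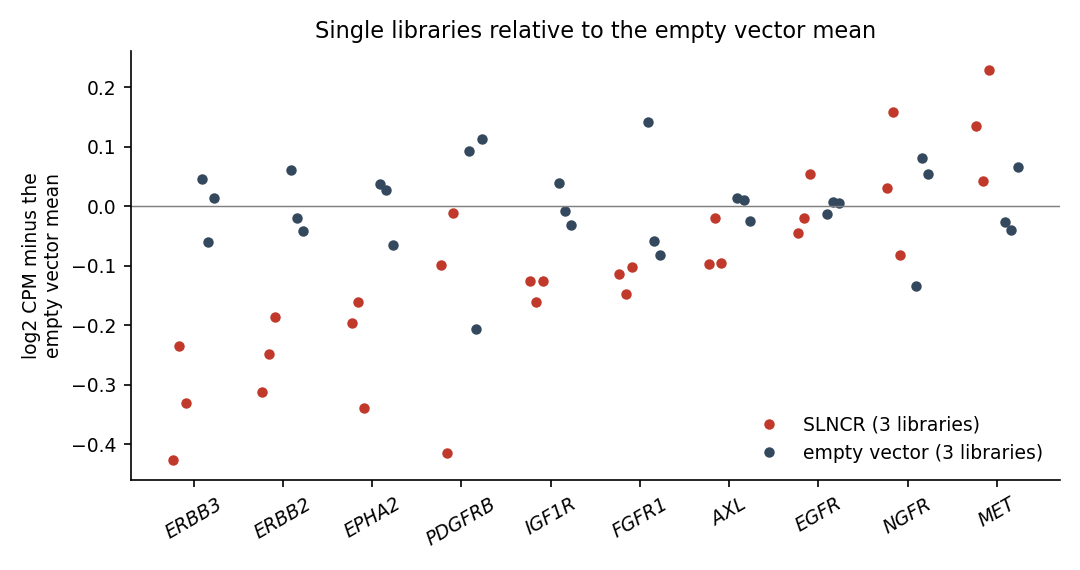
Log2 CPM of each receptor gene in each library, minus the gene's mean in the empty vector libraries, for SLNCR (red, left) and empty vector (dark, right). ERBB3, ERBB2, EPHA2, IGF1R and FGFR1 show all 3 SLNCR points below the empty vector points, and MET and NGFR show a mean above 0.

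Some reads of these genes cannot be assigned with certainty, since the strand setting of the counting is not given in the sources used here. The exons of ERBB2 share 571 bases with MIEN1 and 194 bases with PGAP3 on the opposite strand. MIEN1 averaged 27.2 CPM in the SLNCR group and 32.5 CPM in the empty vector group, with a log2 fold change of -0.25 (edgeR adjusted p = 0.0677), close to that of ERBB2. NGFR shares 22.3% of its exon bases with a transcript on the opposite strand that was not among the genes counted. EGFR shares 186 bases with EGFR-AS1 and FGFR1 138 bases with LETM2. EPHA2, MET, IGF1R and PDGFRB shared no exon base with another annotated gene.

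Transcript base composition moved with the groups, and its part in the change of the receptors was not tested beyond the fit with an offset given here. Within libraries, log2 levels relative to the gene mean changed by -0.075, -0.028 and -0.16 per 10 percentage points of GC content in SLNCR replicates 1, 2 and 3, and by 0.13, 0.094 and 0.042 in empty vector replicates 1, 2 and 3, so that trend separated the groups. EPHA2 has a longest transcript of 60.3% GC and ERBB2 of 57.5% GC, while MET has 42.4% GC, against a median of 47.9% over tested genes. A curve of this trend, taken as SLNCR minus empty vector, stood at -0.21 on the log2 scale at the GC content of EPHA2, at -0.17 at that of ERBB2 and at 0.11 at that of MET. The measured log2 fold changes of EPHA2, ERBB2 and MET were -0.23, -0.25 and 0.14.

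**Figure D3:**
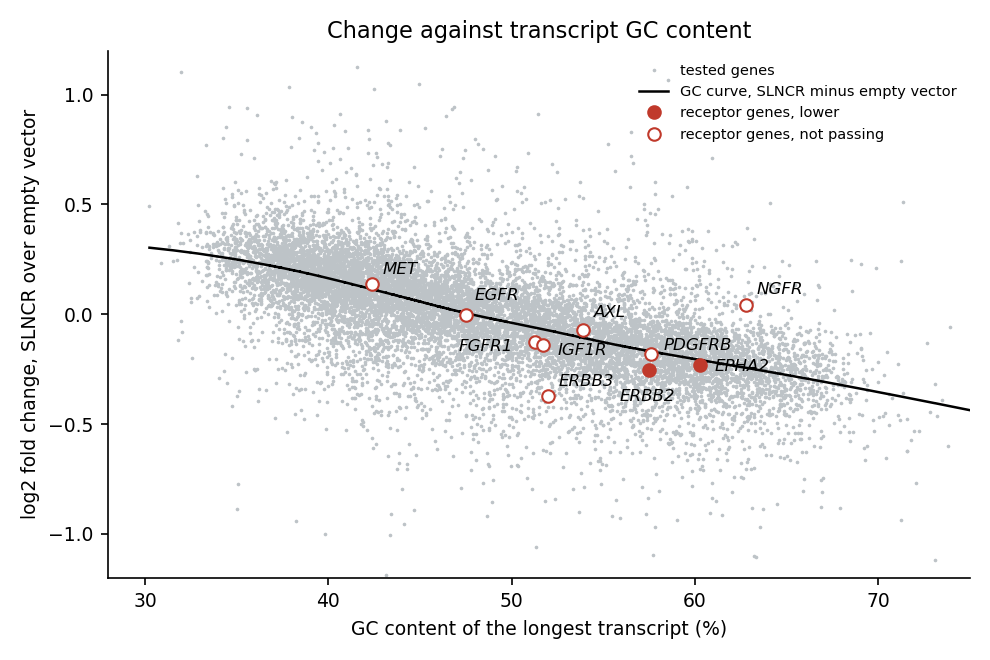
Log2 fold change of SLNCR over empty vector against the GC content of the longest transcript, for tested genes (grey) and the 10 receptor genes (red rings, filled where lower), with the fitted GC curve in black. Another 13 genes lie outside the axes. EPHA2 and MET sit close to the curve at 60.3% and 42.4% GC, and NGFR sits above it at 62.8% GC.

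With a per-library offset for GC content, 0 of the 10 genes passed with edgeR, 0 had an unadjusted p below 0.05, and the smallest adjusted p was 0.363. In that fit 0.0156% of all tested genes passed, and 15.1% had an unadjusted p below 0.05. LINC00673, the transfected transcript, stood at 3.38 in the same fit (edgeR adjusted p = 0.0538) and did not pass either. A gene that does not pass with the offset may therefore still have changed. EPHA2 then had a log2 fold change of -0.02 (95% interval -0.094 to 0.047, edgeR adjusted p = 0.786), ERBB2 of -0.09 (95% interval -0.23 to 0.063, edgeR adjusted p = 0.591) and MET of 0.02 (95% interval -0.055 to 0.097, edgeR adjusted p = 0.83). IGF1R stood at -0.07, FGFR1 at -0.07, PDGFRB at -0.015, ERBB3 at -0.30 and EGFR at -0.0093. AXL changed sign to 0.04. NGFR, whose transcript has 62.8% GC, moved the other way, to 0.28 (95% interval -0.018 to 0.58, edgeR adjusted p = 0.363). For 8 of the 10 genes the size of the change was smaller with the offset, the exceptions being EGFR and NGFR.

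**Figure D4:**
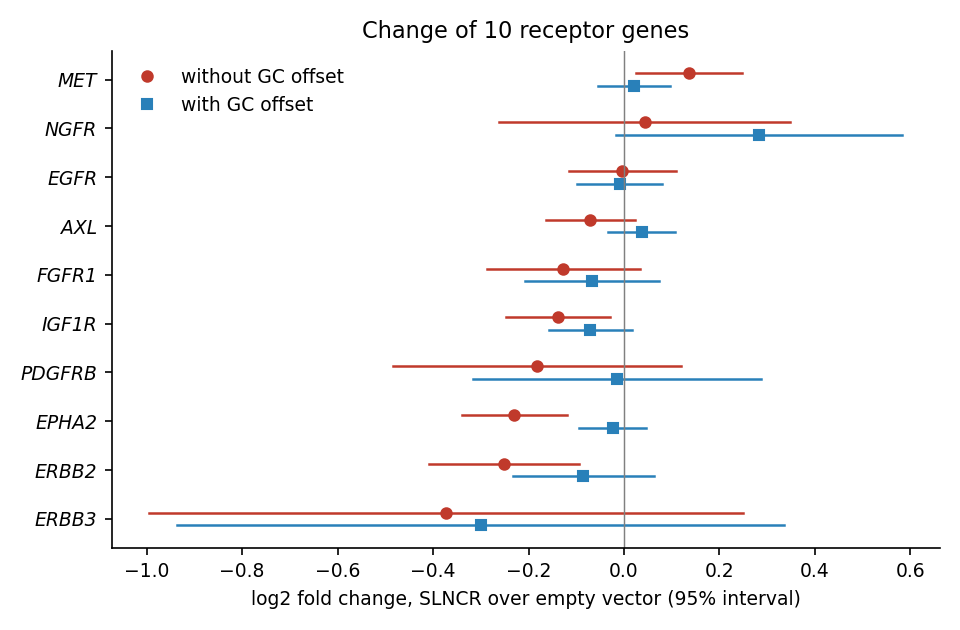
Log2 fold change of SLNCR over empty vector with its 95% interval for each receptor gene, from the edgeR fit without a GC offset (red circles) and with it (blue squares). EPHA2 lies at -0.02 with the offset and -0.23 without it, NGFR at 0.28 with it and 0.04 without it, and ERBB3 keeps the widest interval.

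Which libraries were present decided the calls. Without empty vector replicate 1, without empty vector replicate 2 or without SLNCR replicate 1, 0 of the 10 genes passed with edgeR, while over all tested genes 1, 2 and 1 passed. EPHA2 stayed between -0.27 and -0.18 and ERBB2 between -0.28 and -0.22 on the log2 scale whichever library was left out. Without SLNCR replicate 2, MET passed as well, at 0.18 (edgeR adjusted p = 0.0166). With the replicate number as a block, 4 of the 10 genes passed, where 27.5% of all tested genes did.

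Profiles over the 6 libraries, each taken relative to the gene's empty vector mean, were compared with those of the other 10624 genes averaging 50 counts or more. The nearest profile to EPHA2 was that of CABLES1, at a root mean square difference of 0.0113 on the log2 scale, where the median gene was at 0.206. For ERBB2 it was TOLLIP at 0.0257, for MET KIFAP3 at 0.0158, for AXL SNRNP200 at 0.00909 and for IGF1R FZD2 at 0.00918. EGFR was nearest to RFC5, FGFR1 to NHERF2, NGFR to GABARAPL1 and PDGFRB to ACSS1. For ERBB3, which itself had fewer counts than that minimum, the nearest of 10625 genes was CYB5D2 at 0.0358. None of the 10 genes was the nearest of another. The smallest of so many differences lies below the median by construction, and whether a nearest gene shares more than the group difference was not tested.

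Promoter windows of RefSeq (GRCh38.p14), from 250 bases before to 50 after a start, were found for 7 of the 10 genes, with 9 windows in all. NGFR, ERBB3 and FGFR1 are not among them. Since the study concerns E2F1, the windows were searched on both strands for the E2F letters TTTGGCGC, TTTCCCGC, TTTCGCGC and TTTGCCGC, and beside these for the GC box GGGCGG, the AP-1 site TGANTCA and the TEAD site CATTCC. The E2F letters were in 0 of the 9 windows and in 3.31% of all 35116 windows. The GC box was in 6 of the 9 windows and in 45% of all, the AP-1 letters in 2 of 9 and in 7.71%, and the TEAD letters in 3 of 9 and in 14%. A missing match says only that these letters are not in the window. The parts of the windows before any annotated exon are shown for the 3 highest genes. A link between these letters and the levels was not tested. Capitals mark the GC box on either strand, and in EPHA2 also the TEAD letters just before it.
EPHA2, chr1:16156088-16156319, minus strand: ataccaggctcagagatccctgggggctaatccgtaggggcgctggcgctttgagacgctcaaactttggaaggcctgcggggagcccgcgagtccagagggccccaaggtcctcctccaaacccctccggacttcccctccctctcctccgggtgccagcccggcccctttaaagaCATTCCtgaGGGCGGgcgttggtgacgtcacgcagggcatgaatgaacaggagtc
AXL, chr19:41218973-41219202, plus strand: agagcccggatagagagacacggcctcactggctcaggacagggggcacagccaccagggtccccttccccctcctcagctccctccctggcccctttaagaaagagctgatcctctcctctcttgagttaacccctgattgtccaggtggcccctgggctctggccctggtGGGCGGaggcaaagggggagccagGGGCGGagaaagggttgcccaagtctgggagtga
MET, chr7:116671946-116672195, plus strand: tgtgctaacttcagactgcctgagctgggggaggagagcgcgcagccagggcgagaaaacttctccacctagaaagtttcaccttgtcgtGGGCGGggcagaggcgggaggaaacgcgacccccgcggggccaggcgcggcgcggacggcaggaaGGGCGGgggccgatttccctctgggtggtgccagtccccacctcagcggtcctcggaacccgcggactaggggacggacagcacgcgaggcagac
The 232 bases of EPHA2 held the GC box and TEAD letters, the 230 of AXL held the GC box at 2 places, and so did the 250 of MET, which has the higher GC content of 68.4%, against 63.8% for EPHA2 and 63.9% for AXL. AXL has a second window, not shown, at chr19:41226505-41226754, which held the TEAD letters once and no GC box.

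Genes around the receptors were read from 6 lists with 147 tested members. Of these, 22 were higher, 11 were lower and 22.4% passed in all, against 16.5% of all tested genes (edgeR adjusted p below 0.05). Over all tested genes 8.84% were higher and 7.67% lower, which is the background for the count of each list below. The higher ones had between 34.7% and 45.9% GC and the lower ones between 53.0% and 66.7% GC, so the directions did not overlap in base composition. With the GC offset 0 of the 147 passed, and the smallest edgeR adjusted p was 0.0609, for TGFA.

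**Figure D5:**
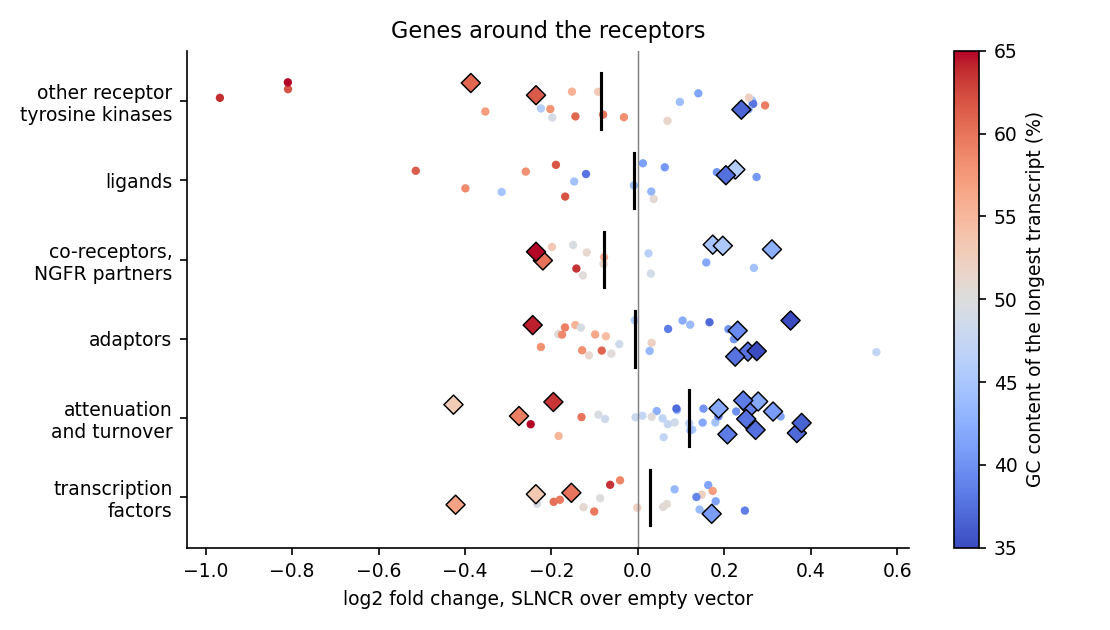
Log2 fold change of SLNCR over empty vector for tested genes of 6 lists around the receptors, coloured by the GC content of the longest transcript, with list medians as bars. Diamonds mark genes that passed, of which the 22 higher ones are low in GC content (blue) and the 11 lower ones are higher in GC content (grey to red).

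Ligands were led by those of EGFR. TGFA had 85.3, 76.9 and 87.1 RPKM in the SLNCR libraries, against 72.03, 69.6 and 71.4 RPKM in the empty vector libraries, and rose by 0.23 in log2 units (standard error 0.0529, adjusted p = 0.0159 by edgeR). The groups did not overlap for TGFA, and with the GC offset its log2 fold change was 0.19 (edgeR adjusted p = 0.0609). HBEGF averaged 29.6 RPKM in the SLNCR group and 28.9 RPKM in the empty vector group. FGF2, a ligand of FGFR1, averaged 16.9 ± 1.45 RPKM in the SLNCR group and 14.7 ± 0.539 RPKM in the empty vector group (SD, n = 3 each) and rose by 0.20 (edgeR adjusted p = 0.0482), against -0.0089 with the GC offset. FGF2 shares 11.9% of its exon bases with NUDT6 on the opposite strand.

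In all, 2 of 17 tested ligands rose, 0 fell and 15 did not pass, with a median log2 fold change of -0.0090. NRG1, a ligand of ERBB3, averaged 8.54 RPKM in the SLNCR group and 8.58 RPKM in the empty vector group, far above ERBB3 itself. GAS6, the ligand of AXL, averaged 0.803 and 0.919 RPKM in the SLNCR and empty vector groups, and PROS1, which binds the related receptors TYRO3 and MERTK, 3.45 and 2.84 RPKM. For the ephrin-A ligands of EPHA2, EFNA5 averaged 7.395 RPKM in the SLNCR group and 7.23 RPKM in the empty vector group, and EFNA1 2.53 and 3.35 RPKM. HGF, the ligand of MET, stayed at 0.0232 and 0.0549 RPKM and was too low to test. BDNF, a neurotrophin that binds NGFR, averaged 5.80 RPKM in the SLNCR group and 5.55 RPKM in the empty vector group.

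Among co-receptors and NGFR partners, 3 of 16 rose, 2 fell and 11 did not pass, with a median of -0.079. CD44, a hyaluronan receptor that assists MET and ERBB2, averaged 153 ± 8.30 RPKM in the SLNCR group and 133 ± 3.01 RPKM in the empty vector group (SD, n = 3 each) and rose by 0.20 in log2 units (edgeR, adjusted p = 0.0159). RIPK2, a kinase recruited by NGFR, rose by 0.31, and the co-receptor gene NRP1 by 0.17. The heparan sulphate carriers SDC1 and GPC1 fell by 0.22 and 0.24 on the log2 scale. SDC4, at 73.8 RPKM in the SLNCR group and 72.3 RPKM in the empty vector group, and BEX3, an NGFR-associated protein gene at 26.1 and 29.99 RPKM, did not pass. With the GC offset CD44 stood at 0.145 (edgeR adjusted p = 0.076), RIPK2 at 0.20, NRP1 at 0.11 and SDC1 at -0.015, while GPC1, with 66.7% GC, turned to 0.06.

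Among adaptors and proximal effectors, 5 of 29 rose, 1 fell and 23 did not pass, with a median of -0.0071. PIK3CA, which encodes a catalytic subunit of PI3K, rose by 0.35 in log2 units (standard error 0.0756, adjusted p = 0.0139 by edgeR), and PIK3CB, another, by 0.23. The kinase gene YES1 rose by 0.23, and the regulatory subunit gene PIK3R2 fell by 0.24. The most abundant members, SHC1 at 67.6 RPKM in the SLNCR group and 72.3 RPKM in the empty vector group, PTPN11 at 64.6 and 60.1 RPKM, CRK at 33.6 and 33.8 RPKM and GRB2 at 32.6 and 31.9 RPKM, did not pass. PIK3CA has 34.8% GC and PIK3R2 64.2% GC, and with the GC offset both lost their calls, at 0.10 and 0.02. PIK3CA shares 35.8% of its exon bases with KCNMB3 on the opposite strand. PIK3R2 shares 87.2% with another protein-coding gene on the same strand, which was not among the genes counted.

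Of 37 tested genes that end receptor signals, 10 rose, 3 fell and 24 did not pass, with a median log2 fold change of 0.12. PTPN12, a tyrosine phosphatase, had 35.9, 33.04 and 39.7 RPKM in the SLNCR libraries, against 27.9, 28.8 and 30.7 RPKM in the empty vector libraries, and rose by 0.31 (edgeR adjusted p = 0.0137). The endocytic adaptor genes STAM2 and CD2AP rose by 0.38 and 0.37, while EPN1, which helps to form clathrin-coated pits, fell by 0.43 in log2 units (edgeR, adjusted p = 0.0137 for each). The receptor phosphatase gene PTPRF was the next lower one in adjusted p, and stood at -0.27. RAB7A, CLTC and ERRFI1, an inhibitor of EGFR, were among the most abundant, and of these CLTC, the clathrin heavy chain gene, rose by 0.19, while RAB7A stood at 0.01 and ERRFI1 at 0.09. The list had a median GC content of 43.9%, below the 47.9% of all tested genes, and with the GC offset its median was 0.05. EPN1 then stood at -0.34 (edgeR adjusted p = 0.0609).

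Among 24 tested transcription factors tied to melanoma receptor states, 1 rose, 3 fell and 20 did not pass, with a median of 0.03. The 3 that fell were AP-1 genes. FOSL1, which marks the dedifferentiated state, averaged 249 ± 11.4 RPKM in the SLNCR group and 277 ± 10.2 RPKM in the empty vector group (SD, n = 3 each), a log2 fold change of -0.15 (edgeR adjusted p = 0.0444). JUN stood at -0.42 and FOSL2 at -0.24, while WWTR1, a partner of TEAD factors, rose by 0.17. YAP1 and SOX9 did not pass, at 0.09 and -0.13. With the GC offset FOSL1 stood at 0.05, JUN at -0.27 (edgeR adjusted p = 0.172), FOSL2 at -0.14 and WWTR1 at 0.02. WWTR1 shares 9.4% of its exon bases with WWTR1-AS1.

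Other receptor tyrosine kinases were all far below EPHA2, AXL and MET. The list held 43 genes of the table, of which 24 were tested, 1 rose, 2 fell and 21 did not pass, with a median of -0.086. RYK, a Wnt co-receptor, was the highest at 17.4 ± 1.34 RPKM in the SLNCR group and 14.7 ± 0.478 RPKM in the empty vector group (SD, n = 3 each), and rose by 0.24 (edgeR adjusted p = 0.0217). The ephrin-B receptor gene EPHB4 fell by 0.39 in log2 units (edgeR, adjusted p = 0.0411), and DDR1, a collagen receptor gene, fell by 0.24 (edgeR adjusted p = 0.0417). LMTK2, DDR2 and ROR1 followed RYK in level, at 12.7, 9.58 and 8.13 RPKM in the SLNCR group and 12.1, 8.69 and 7.58 RPKM in the empty vector group, and did not pass. With the GC offset RYK stood at 0.016, EPHB4 at -0.18 and DDR1 at -0.012, and none of these 3 passed. Of the AXL relatives, TYRO3 averaged 2.82 and 3.00 RPKM in the SLNCR and empty vector groups and MERTK 0.0982 and 0.16 RPKM. KIT, the receptor of normal melanocytes, averaged 0.0296 and 0.012 RPKM and was too low to test.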

How the data were processed

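Paired reads of 150 bases came from 6 Illumina libraries depleted of ribosomal RNA, per the labels' protocols. The authors deposited raw read counts per gene. The submitters' processing notes name STAR, cutadapt and DESeq2, and the build GRCh38. For the counter, the annotation and the strand setting, the sources used here give nothing. The 1857 rows that name no gene (2.15% to 2.59% of counts) and 63 copies of neighbouring rows with identical counts (0.611% to 0.745%) were left out. Libraries of a group differed by more than sampling noise (chi-square per degree of freedom 1.78 to 7.00).

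SLNCR was set against empty vector in R 4.3.3 with the robust quasi-likelihood test of edgeR 4.0.16, after TMM scaling and filterByExpr at its defaults. No covariate entered. The p-values are two-sided, adjusted by Benjamini-Hochberg across 12797 genes, and passed below 0.05. The biological coefficient of variation was 5.65%. Each standard error was derived from the F statistic, and 95% intervals use the degrees of freedom of the fit. RPKM is TMM-scaled CPM over the length of a gene's merged exons in GENCODE release 29. The GC offset removed a loess curve per library (quadratic, span 0.5) of log2 CPM, with a prior count of 2, against the GC content of the longest transcript. Counts were simulated for SLNCR against empty vector without a GC trend, with 200 changed genes among 12667 genes run. Of the genes changed by 0.5 in log2 units 77% were recovered, and 99% of those changed by 1. The simulated spread came from the fit without the offset, and changed genes had a minimum mean count that ERBB3 did not reach. In the real libraries LINC00673 did not pass with the offset, so these shares do not give the recovery there. With a simulated GC trend (12663 genes run), 1707 unchanged genes were called without the offset and 6 with it. That trend was a straight line in the same GC values that the offset uses, so its removal was built in. The simulation does not bear on the cause of the trend in the real libraries, and changes below 0.5 were not simulated.

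The receptors and lists were chosen with earlier results of these data known. Named genes are all 10 receptors, up to 4 genes per list with the smallest adjusted p among those passing, up to 4 with the highest level, the nearest profile of each receptor, and LINC00673. Other ligands, the AXL relatives, KIT, SOX10, the pigment genes, GPC1, MIEN1 and the genes of low cell markers fall outside that rule and were picked with values in view. Whether the replicate numbers pair the libraries was not settled: same-numbered libraries had correlations of deviations of 0.075, 0.0073 and 0.24. Alternatives were other size factors, filters, DESeq2 1.42.0, limma-voom (limma 3.58.1), the GC offset, the replicate block, leaving out each library, a threshold of 0.10 and other gene lengths.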

Additional observations from a re-analysis of the deposited data

How the results depend on the processing

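The count of 2112 changed genes went to 2 with the GC offset, 3523 with the replicate block, 407 with the block and the offset, and 3642 at a threshold of 0.10. Leaving out a library gave 1 to 3366 changed genes. With the offset as well, an alternative added after the data were seen, it gave 0, 1, 4, 2, 668 and 101. The count of 2 changed receptors went to 1 with DESeq2 (EPHA2, while ERBB2 had an adjusted p of 0.057), 0 with the offset, 4 with the block (MET and IGF1R added), 0 with both, and 4 at 0.10. With no filter it was 3, with MET added at a log2 fold change of 0.15 (edgeR adjusted p = 0.024). Leaving out a library gave 0 to 3 receptors, and 0 in each case with the offset. The 33 called genes of the 6 lists became 0 with the offset, 4 with the block and the offset, and 52 at 0.10. Leaving out a library gave 0 to 44, and 0, 3 or 6 with the offset. Whether the replicate numbers pair the libraries is open. SLNCR replicates 1 and 3 correlated best with the empty vector library of their own number (0.075 and 0.24). SLNCR replicate 2 correlated best with empty vector replicate 1 (0.21).

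The receptors' summed level in the SLNCR group was 452.6 RPKM, 495.6 over the longest transcript and 496.7 over the principal coding transcript, with the order of the 10 genes kept. By those lengths ERBB2 went to 8.21 and 8.91 RPKM, against 3.92 over merged exons, FGFR1 to 8.16 and 8.60, against 3.66, and ERBB3 to 0.226 by both, against 0.148.

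Signs turned for 6 receptors that did not pass, and the cause was not tested. AXL stood at 0.037 with the offset, with or without the block, and at 0.029, 0.042, 0.041, 0.052, 0.030 and 0.029 with the offset and a library left out. EGFR stood at 0.00048 with size factors in the manner of DESeq2, 0.012 with no filter and 0.00042 with DESeq2. Leaving out a library gave EGFR -0.031 to 0.018 and NGFR -0.025 to 0.10. With the offset and a library left out, EGFR reached 0.0098, MET -0.0022, PDGFRB 0.0081, 0.064 and 0.13, and FGFR1 0.00056. At 12 to 18 counts, ERBB3 is limited by depth.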
